A study of Mus musculus with 97 samples.

Results

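The 97 libraries of whole mouse colon differed widely in how much of their RNA came from genes of smooth muscle. Each library was given a muscle score, the mean log2(TPM + 1) of Acta2, Actg2, Myh11, Tagln, Cnn1 and Des, where TPM is the transcript abundance, scaled for gene length and library size, that the authors deposited. Both classes were chosen by this score: the 24 libraries with the highest values were set against the 24 with the lowest, and the 49 between them were kept apart. Because measured values of the same libraries made the classes, every difference between them is given as a description, with no test. The 6 score genes were left out of the results.

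The libraries came from wild-type C57BL6/J mice of 8 to 12 weeks of age, and the series compared antibiotics given by different routes. Animals received 2.5 mg of ampicillin, metronidazole, neomycin or vancomycin, or a mix of these 4, in 100 µl of phosphate-buffered saline (PBS), and controls received PBS alone. Whether 2.5 mg was the mix's total or the amount of each antibiotic is not stated. Dosing was 2 times a day for 3 days with a last dose on day 4, by gavage (PO), intraperitoneal (IP) or intravenous (IV) injection, and the whole colon was taken 4 h after the last dose. The 6 treatments and 3 routes made 18 groups of 4 to 6 libraries. Nothing in the labels says that the replicates of a group came from different animals, and p-values therefore refer to the spread among libraries, which may be technical.

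The colon wall is layered. An inner mucosa of absorptive colonocytes, mucus-secreting goblet cells and hormone cells lies on a muscularis of circular and longitudinal smooth muscle, which holds the ganglia of the enteric nervous system and the interstitial pacemaker cells that drive its contractions. Many smooth muscle genes are controlled by serum response factor (Srf), which binds the CArG box, together with its coactivator myocardin.

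Promoters of the contractile genes were searched for the box through which that factor acts. Windows of 250 bases before to 50 bases after each start site were read for the CArG box on both strands, in RefSeq sequence of GRCm38.p6. Only exact matches to CCWWWWWWGG, with W for A or T, were counted. The box was found in 2 of the 18 smooth muscle contractile genes with a window (11.1%). It was in 190 of 12268 genes tested in these libraries (1.55%) and in 488 of 27018 genes of the whole table (1.81%). Lists of other cells had similar or lower shares, with 1 of 12 general epithelial genes (8.33%) and 1 of 13 enteric neuron genes (7.69%). Muscle channels and receptors had 0 of 15, fibroblasts and collagens 0 of 10, goblet cells 0 of 8 and surface colonocytes 0 of 16. The matches were in Myl9, the regulatory light chain of smooth muscle myosin, at 161 bases before the start site, and in Vcl, the adhesion protein vinculin, at 227 bases before it. The 250 bases before each start site are shown for these genes because they held the match, and not for their values. Both lie on the plus strand, Myl9 at chr2:156775214-156775463 and Vcl at chr14:20929148-20929397, and capitals mark the box.
Myl9: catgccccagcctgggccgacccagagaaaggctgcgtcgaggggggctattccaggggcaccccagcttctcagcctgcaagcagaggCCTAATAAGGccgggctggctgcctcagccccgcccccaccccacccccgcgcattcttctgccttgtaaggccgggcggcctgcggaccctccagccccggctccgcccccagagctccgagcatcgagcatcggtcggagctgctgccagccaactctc
Vcl: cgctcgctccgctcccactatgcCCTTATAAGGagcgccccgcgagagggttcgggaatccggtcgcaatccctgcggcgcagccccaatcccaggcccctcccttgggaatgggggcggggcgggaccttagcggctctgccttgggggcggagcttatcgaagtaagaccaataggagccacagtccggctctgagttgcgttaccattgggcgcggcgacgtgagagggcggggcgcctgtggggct
None of the 3 score genes with a window (Acta2, Cnn1 and Des) held an exact match within it. Near matches were not counted, such as ccctatatgg and ccttgtttgg in the Acta2 window. A match is a description of the letters and not of binding.

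The score fell on a continuous scale with no gap at either boundary. It ran from 12.608 to 13.454 in the 24 highest libraries, from 10.331 to 12.596 in the 49 middle ones and from 8.8115 to 10.294 in the 24 lowest, with class medians of 12.90, 11.23 and 9.92. At the upper boundary, Vancomycin-IP replicate 4 at 12.608 was just inside and Mix-IP replicate 1 at 12.596 just outside. At the lower one, Metronidazole-PO replicate 1 at 10.294 was just inside and Vancomycin-PO replicate 6 at 10.331 just outside.

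The score genes took up a visible part of the whole transcriptome. Together they made up 3.80% to 6.84% of all TPM in the highest class (median 4.71%), against 0.302% to 0.80% in the lowest (median 0.621%). Myh11, the smooth muscle myosin heavy chain, had a lowest, median and highest TPM of 6647, 9885 and 14640.0 in the highest class and of 694, 1646 and 2185 in the lowest. Des, the intermediate filament protein of muscle, had 6794, 8949 and 13291 against 439, 997 and 1486. None of the 6 overlapped between the classes, as the rule makes likely. In bulk tissue, fewer cells of a type and less RNA per cell cannot be told apart, and TPM values sum to a constant, so a larger share of one tissue lowers the share left to the others.

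**Figure D1:**
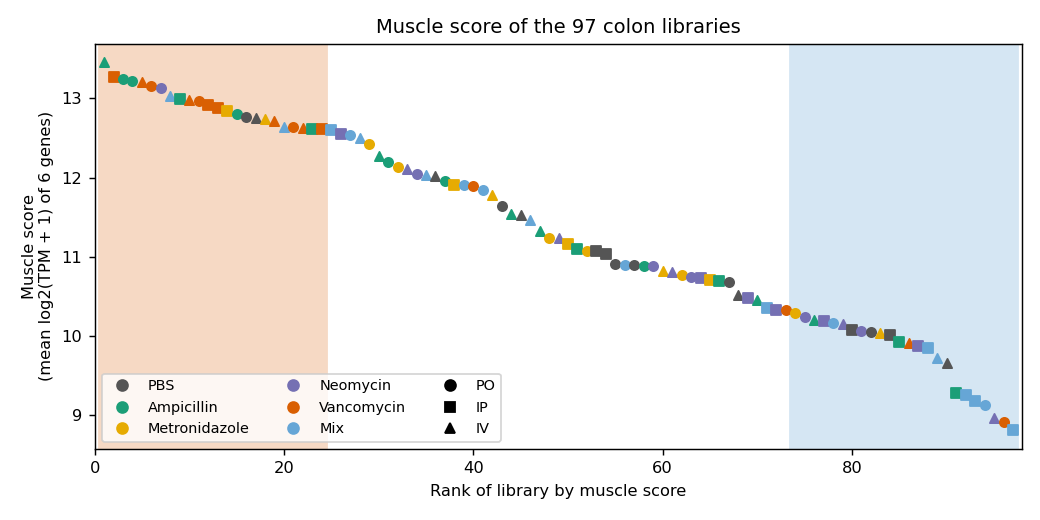
Muscle score (mean log2(TPM + 1) of 6 genes) of each of the 97 libraries against its rank, with colour for treatment and marker shape for route. The left band holds the 24 highest libraries, 11 of them from vancomycin, and the right band the 24 lowest.

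The classes were not balanced over treatments. Vancomycin gave 11 of its 15 libraries to the highest class, 2 to the middle and 2 to the lowest. Ampicillin gave 6 of 18 to the highest and 3 to the lowest, whereas the mix gave 2 and 7 of 18, neomycin 1 and 6 of 17, PBS 2 and 4 of 15, and metronidazole 2 and 2 of 14. A permutation test of the 3 classes against the 6 treatments (100000 permutations, chi-square 29.999) gave p = 0.00066, and 0.00396 after adjustment over the 6 balance tests. Without the 15 vancomycin libraries, a setting chosen after seeing the data, the permutation p was 0.385. That test had fewer libraries and does not show that the other treatments were balanced.

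Routes were spread more evenly. The highest class held 7 of 30 IP, 9 of 31 IV and 8 of 36 PO libraries, and the lowest class 10, 7 and 7. The permutation test of class against route gave p = 0.663, and that against all 18 groups gave p = 0.0568 (adjusted 0.0853). Treatment accounted for 13.8% of the variance of the score itself (permutation F test, p = 0.0183, adjusted 0.0548), route for 2.80% (p = 0.262, adjusted 0.315) and the 18 groups for 28.8% (p = 0.0333, adjusted 0.0666), so none of these 3 passed the adjustment. These shares were not corrected for the number of groups, which raises that of the 18 groups most.

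Within a route, no antibiotic differed from PBS in muscle score after adjustment over 15 comparisons by exact permutation tests, and 2 had an unadjusted p under 0.05. All 4 Vancomycin-IP libraries were in the highest class, with a score of 12.92 ± 0.27 (SD, n = 4) against 10.55 ± 0.58 in PBS-IP (n = 4), a difference of 2.37 (exact two-sided permutation p = 0.0286, the smallest that 4 against 4 allow, adjusted 0.357). Ampicillin-PO exceeded PBS-PO by 1.23 (exact permutation p = 0.0476, n = 6 each, adjusted 0.357). Mix-IP stood at the other end, with 4 of its 6 libraries in the lowest class and a mean of 10.01 ± 1.38 (SD). Neomycin by IP or IV injection gave no library to the highest class and 4 to the lowest. The vancomycin libraries were also not of one kind: IV replicate 1 had 859 TPM of Myh11, 2183 of the epithelial adhesion gene Epcam and 7128 of the goblet cell lectin Zg16, where the other 4 IV libraries had 8860 to 11941, 226 to 1428 and 140.0 to 733.

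The columns of 12 libraries, 8 of vancomycin and 4 of PBS, were appended at the end of the deposited table. They fell into all classes, 5 highest, 3 middle and 4 lowest. Without them vancomycin had 6 of 7 libraries in the highest class, 1 in the middle and none in the lowest. Genes with a value above 0 numbered 18247 to 19884 per library, and the mitochondrial genome took 6.14% to 25.7% of TPM in the highest class and 3.89% to 25.1% in the lowest. Depth is unknown, because TPM keeps no read totals.

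The classes differed in a large part of the transcriptome. Of 17077 genes, 2846 (16.7%) had a mean more than 1 log2 unit higher in the highest class and 1568 (9.18%) a mean more than 1 log2 unit lower, with a median difference over all genes of 0.05. In 1327 genes (7.77%) every library of the highest class lay above every library of the lowest, and in 120 (0.703%) every one lay below. The direction was shared by the PO, IP and IV libraries taken apart in 2845 of the 2846 and in 1566 of the 1568. The share of higher genes among those past 1 log2 unit was 64.5%, 55.5% after quantile normalization and 73.5% when TPM was rescaled without muscle and mitochondrial genes. Without vancomycin libraries the counts were 2866 higher and 1815 lower. Quantile normalization moved the median difference by -0.135 and the rescaling by 0.158.

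A different measure, a slope, was then taken in the 49 middle libraries, which the comparison of extremes did not use. The same ranking by score had set these libraries apart. The slope was also fitted on the score that made the classes. A shared direction of slope and class difference is therefore not an independent test of the class differences. The slope p-values show only how closely a gene went with the score among the middle libraries. There a slope on the muscle score was fitted to each gene with limma, with treatment and route as covariates, in log2 units per unit of score. At a Benjamini-Hochberg adjusted p under 0.05, 4953 genes (29.0%) had a positive slope and 1867 (10.9%) a negative one. Of the 2846 genes higher in the extremes, 2632 (92.5%) had a called positive slope and 0 a called negative one. Of the 1568 lower genes, 951 (60.7%) had a called negative slope and 0 a called positive one. After quantile normalization the slopes called were 3437 positive and 3458 negative, so the excess of positive slopes (72.6% of those called) is not a property of every scaling.

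**Figure D2:**
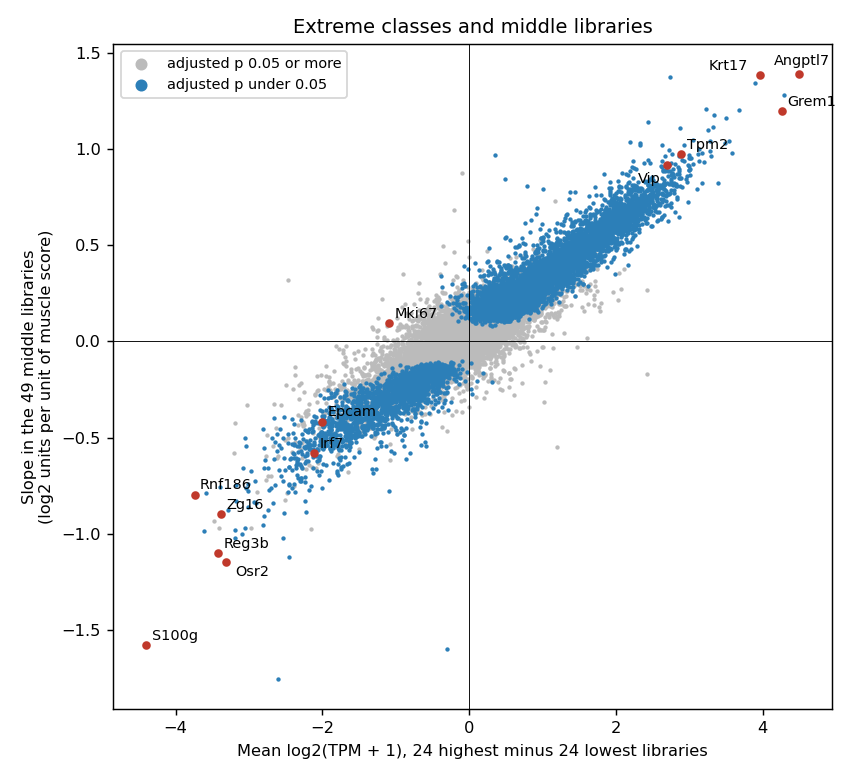
Slope on the muscle score in the 49 middle libraries against the difference between the extreme classes, one point per gene (17077 genes), with blue for slopes at a limma adjusted p under 0.05. Genes past 1 log2 unit in either direction have no called slope of the opposite sign, and Mki67 is one of the genes lower in the extremes whose slope was not called.

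Contractile genes outside the score followed it in full. All 20 of the smooth muscle list were over 1 log2 unit higher in the highest class, with a median difference of 2.67, and 18 did not overlap between the classes. All 20 had a called positive slope in the middle libraries. Tpm2, the beta tropomyosin of muscle, had a lowest, median and highest TPM of 3069, 4883 and 6980.3 in the highest class and of 354, 666 and 1123 in the lowest, a 7.34-fold ratio of medians, and its slope was 0.97 (SE 0.049, limma adjusted p = 1.26e-19). Flna, which crosslinks actin filaments, had 4890.5, 7990.3 and 11370.0 TPM against 474, 1295 and 2009, with a slope of 0.90 (limma adjusted p = 2.84e-15). Every library of the highest class was above every library of the lowest for both genes. Mylk, the kinase that phosphorylates myosin light chain to start contraction, had 2524, 4744 and 6796 TPM against 393, 890.3 and 2031, again without overlap.

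Channels and receptors of muscle were higher in 15 of 16 cases, each with a called positive slope, and the median difference was 2.12. Cacna1c, the L-type calcium channel that admits calcium for contraction, had 100.3, 157 and 232 TPM in the highest class and 13.1, 37.2 and 61.7 in the lowest, with no overlap and a slope of 0.72 (SE 0.083, limma adjusted p = 1.92e-09). Pln, the inhibitor of the calcium pump of the sarcoplasmic reticulum, differed by 3.13 log2 units, and Chrm2, a muscarinic receptor for acetylcholine, by 3.01. Atp2b4, a calcium pump of the plasma membrane, differed by 1.81 but overlapped between classes, and its slope was called at a limma adjusted p of 0.0441, but not without the appended libraries (0.0861) or without vancomycin (0.0585). The exception was P2rx1, an ATP-gated channel, at -0.26. Pln, Chrm2 and P2rx1 were picked after their values were seen.

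Transcription factors of muscle and mesenchyme were over 1 log2 unit higher in 11 of 15 cases and over 1 unit lower in none. Srf had a lowest, median and highest TPM of 85.5, 131 and 196 against 30, 48.1 and 72.3 and did not overlap, with a slope of 0.48 (SE 0.061, limma adjusted p = 1.86e-08). Its difference of 1.37 log2 units was below the contractile list's median of 2.67. Hand2, a factor of gut mesenchyme and neurons, differed by 2.26 and Meis2 by 2.58, both without overlap. Myocd, which encodes myocardin, differed by 2.32. In contrast Mrtfb, a coactivator of Srf related to myocardin, was lower by 0.56 log2 units, and its slope was the 1 of the list called negative (-0.20, limma adjusted p = 0.0102). Myocd and Mrtfb were singled out after their values were seen.

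The nerve plexus followed the muscle. Of 20 genes of enteric neurons, 19 were over 1 log2 unit higher in the highest class, with a median of 2.21, and 18 had a called positive slope. Vip, the neuropeptide of inhibitory motor neurons, had a lowest, median and highest TPM of 91.5, 189.9 and 309 against 6.79, 23.2 and 91.2, an 8.19-fold ratio of medians with no overlap, and a slope of 0.92 (SE 0.17, limma adjusted p = 2.08e-05). Nos1, which makes the nitric oxide that relaxes gut muscle, had 37.6, 153 and 293 TPM against 7.68, 26.8 and 54.5, with overlap. Prph, a neuronal intermediate filament protein, differed by 2.23 and the ubiquitin hydrolase Uchl1 by 2.10. The single neuron gene lower by over 1 unit was Ddc (-1.25), a decarboxylase of serotonin synthesis that hormone cells of the mucosa also use.

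Pacemaker genes were higher in 7 of 8 cases, with a median of 2.09 and 7 called positive slopes. Kit, the receptor that marks interstitial cells of Cajal, had 80.1, 178 and 271 TPM against 18.9, 42.1 and 71.3, with no overlap and a slope of 0.61 (limma adjusted p = 4.71e-07). Ano1, the chloride channel behind their slow waves, was higher by 1.38 in the extremes but had a slope of 0.19 that was not called (SE 0.15, limma adjusted p = 0.322). Glial genes were more mixed, with 7 of 11 higher and 1 lower. Gfap, the intermediate filament of glia, differed by 2.40, while Erbb3, a neuregulin receptor, was lower, at 36.6, 119 and 299.7 TPM against 143, 295 and 577.

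Connective tissue showed the same direction as muscle. Of 18 fibroblast and collagen genes, 15 were over 1 log2 unit higher and none lower, with a median of 1.99 and 15 called positive slopes. Col3a1, the chain of type III collagen, had 806, 1349.5 and 2348 TPM against 82.5, 221 and 382, and Fn1, fibronectin, had 638, 1015 and 2138 against 68.7, 148 and 295. Neither overlapped between the classes. Endothelial genes had a median of 0.77, with 5 of 14 higher and 4 called positive slopes (28.6%, near the 29.0% of all genes). Eng, a coreceptor for transforming growth factor beta, differed by 1.70 and the adhesion protein Pecam1 by 0.84, while Plvap, a protein of fenestrated vessels, stood at -0.34. Against 16.7% of all genes, mesothelial genes were higher in 3 of 9 cases and adipocyte genes in 1 of 9, that one being Plin4, a lipid droplet protein (2.08). Without vancomycin libraries 1 of the 9 mesothelial genes was higher, and Gpm6a and Upk3b, which made up the 3 with Nkain4, were at -0.019 and -0.40 in PBS libraries alone. Skeletal muscle genes had a median difference of 0.07, with 3 of 10 over 1 log2 unit higher and none lower. Their 2 called positive slopes were 20% of the list, below the 29.0% of all genes. Ckm, a muscle creatine kinase, had 48.8, 142 and 228 TPM against 5.74, 20.5 and 62.3, a difference of 2.51. Myh2, a fast skeletal myosin, differed by 1.71 and Tnnt3, a skeletal troponin picked after its values were seen, by 1.51. The skeletal actin Acta1 was at -0.59 and the giant sarcomere protein Ttn at -0.13.

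Of 12 stromal genes of the stem cell niche, 7 were over 1 log2 unit higher and none over 1 unit lower, with a median of 1.39. Grem1, a secreted antagonist of bone morphogenetic proteins, had 98, 298 and 576 TPM in the highest class and 2.17, 9.45 and 89 in the lowest, a 31.5-fold ratio of medians with no overlap, and its slope was 1.20 (SE 0.26, limma adjusted p = 0.000251). The Wnt antagonist Sfrp1 differed by 2.86 and Bmp4, one of the proteins that Grem1 binds, by 2.05. Foxl1, a factor of the telocytes next to the epithelium, was lower by 0.69 with a called negative slope (limma adjusted p = 0.042), at medians of 0.457 and 1.3 TPM. It was singled out after its values were seen.

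**Figure D3:**
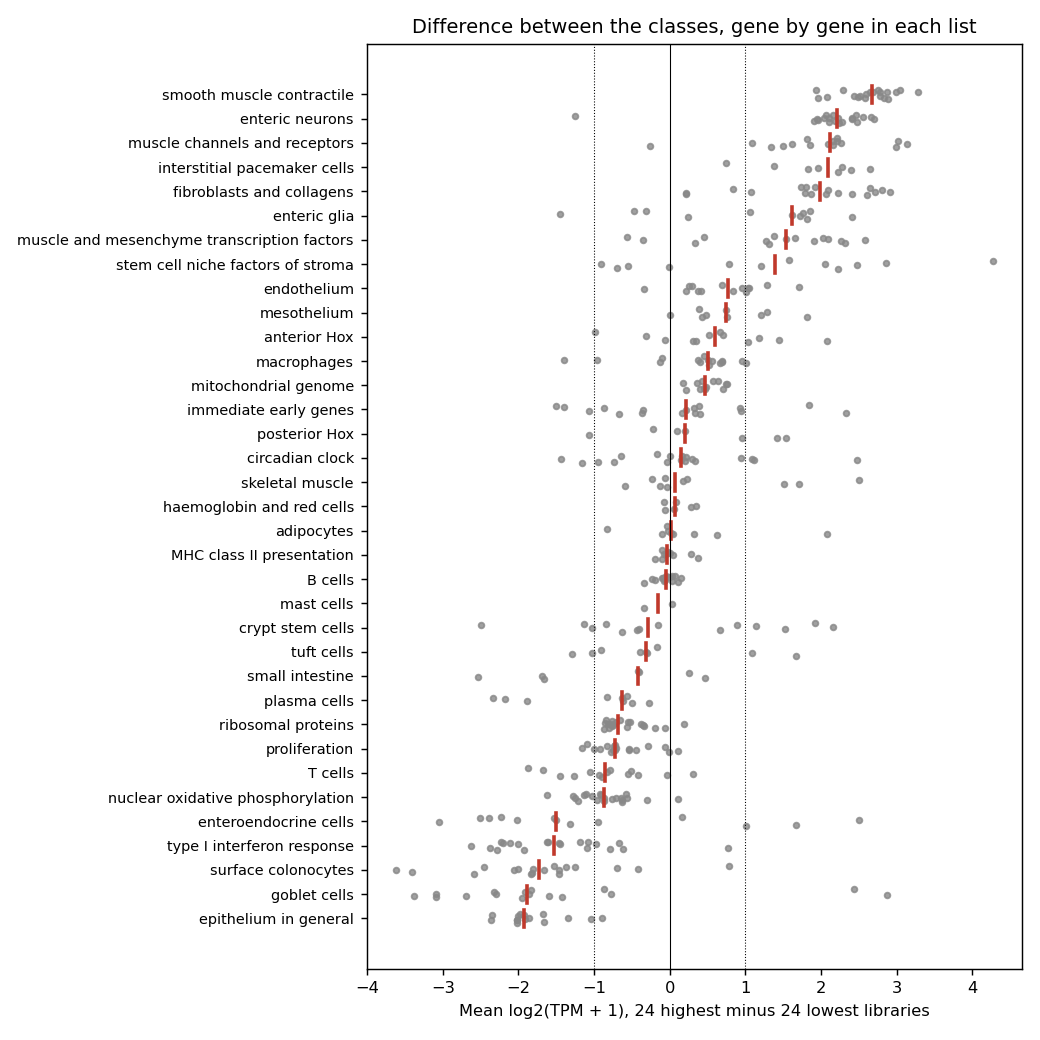
Difference of mean log2(TPM + 1) between the 24 highest and 24 lowest libraries for each tested gene (grey points) of 35 lists, with the list median in red and dotted lines at 1 log2 unit. Smooth muscle contractile genes are at the top (median 2.67) and general epithelial genes at the bottom (median -1.93).

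Epithelial genes lay on the other side. Of 15 genes of epithelium in general, 14 were over 1 log2 unit lower in the highest class and none higher, with a median of -1.93, and 12 had a called negative slope. Epcam had a lowest, median and highest TPM of 60.2, 555 and 1428 in the highest class and of 1201, 2003 and 2472 in the lowest, so the ranges overlapped, and its slope was -0.42 (SE 0.14, limma adjusted p = 0.014). Krt19, a keratin of simple epithelium, had 102, 536 and 1506 against 1483, 2174 and 4274. The mean log2 level over the 15 genes was 7.52 ± 0.91 (SD, n = 24) in the highest class and 9.33 ± 0.23 in the lowest, and 22 of the 24 lowest libraries were above every library of the highest class.

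On the log2 scale the spread was on the muscle-rich side. The epithelial mean ran from 5.43 to 8.95 across the highest class but only from 8.91 to 9.89 across the lowest. The smooth muscle list ran the other way, from 9.56 to 10.42 in the highest and from 6.37 to 8.01 in the lowest, without overlap. In summed TPM the epithelial genes ran from 1131.7 to 11028 in the highest class and from 11914 to 25127 in the lowest. On that scale the lowest class was the wider. The 11 vancomycin libraries of the highest class had an epithelial mean of 7.82 ± 0.73 (SD), and the 13 others of that class 7.27 ± 0.99. The list median was -2.21 without any vancomycin library.

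**Figure D4:**
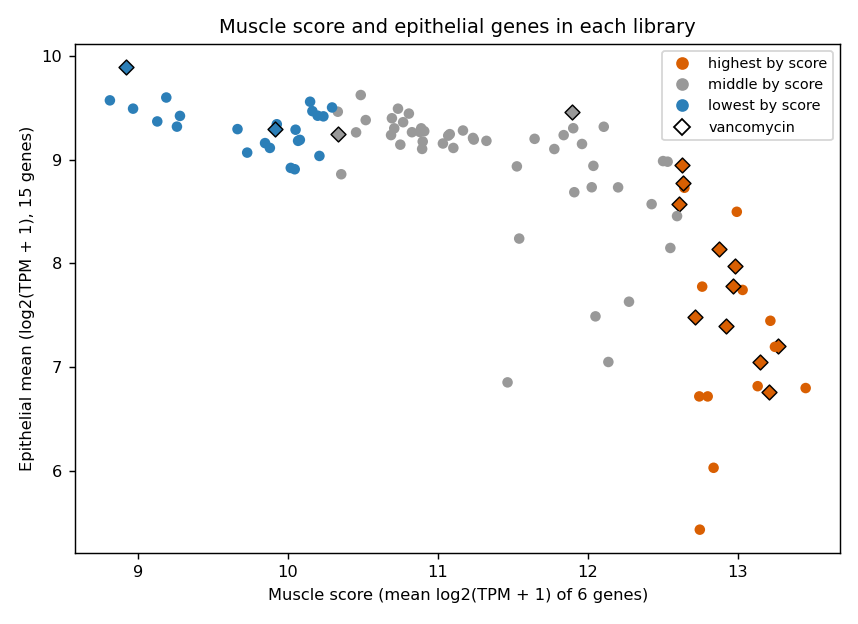
Mean log2(TPM + 1) of 15 epithelial genes against the muscle score in each of the 97 libraries, coloured by class, with diamonds for vancomycin. The 24 lowest libraries sit between 8.91 and 9.89 on the epithelial axis and the 24 highest between 5.43 and 8.95.

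Goblet cell genes were lower in 12 of 16 cases, with a median of -1.88 and 9 called negative slopes. Zg16, a mucus lectin that binds bacteria, had 44.1, 233 and 1209.9 TPM against 657, 2293 and 7128, a median 9.84 times as high in the lowest class, with a slope of -0.90 (SE 0.23, limma adjusted p = 0.0019). Fcgbp, another mucus component, had 69.6, 315 and 1621 against 1059.5, 3093 and 7840.1. Muc2, the main gel-forming mucin, differed by -2.33, but its slope of -0.43 was not called (limma adjusted p = 0.113). Against the list, Retnlb was higher by 2.87 and Ang4 by 2.43, both secreted antimicrobial proteins of goblet or crypt cells. Retnlb had 2.84, 15.8 and 114 TPM against 0.118, 0.99 and 149 and a slope of 1.11 (limma adjusted p = 0.0186), and the slope of Ang4 was not called (limma adjusted p = 0.532). They were named after their values were seen.

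Surface colonocyte genes were lower in 15 of 18 cases, with a median of -1.73. Only 6 slopes were called, all negative (33.3%, against 10.9% of all genes). Car1, a carbonic anhydrase of colonocytes, had 16.2, 208 and 2643 TPM against 438, 3612 and 15741, and Muc3, a membrane mucin of the brush border, had 362, 2936 and 6087 against 3836, 12220.0 and 14289. Both overlapped between the classes. Lypd8, which keeps flagellated bacteria from the epithelium, differed by -2.45, with a slope of -0.74 (limma adjusted p = 0.000337). Of 7 genes of small intestine, 3 were lower, against 9.18% of all genes. Among the 3 was Sis, the sucrase of the brush border, at medians of 0.081 and 14.6 TPM.

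Markers of rarer epithelial cells were split in direction. Among 13 enteroendocrine genes, 8 were lower and 3 higher, against 9.18% and 16.7% of all genes. Chga, the granin of hormone granules, had 14.9, 30.8 and 78.6 TPM against 45.7, 143 and 334, and the hormone Pyy 2.12, 9.81 and 114 against 31.5, 116 and 173. Scg2, a granin that enteric neurons make as well, was higher instead, at 119, 197 and 301 against 7.61, 35.1 and 78.9 with no overlap, and Sst, somatostatin, at a difference of 1.67. Both had a called positive slope (limma adjusted p = 1.74e-09 and 0.0385). Dclk1, a kinase of tuft cells and of neurons, differed by 1.67, while Trpm5, the taste-type channel of tuft cells, stood at -0.90. Sst was picked after its values were seen.

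Genes often used to mark crypt stem cells did not move as one. Of 14, 4 were higher and 3 lower, against 16.7% and 9.18% of all genes, and the median was -0.29. Their 5 called positive slopes were 35.7% of the list, against 29.0% of all genes. Nkd1, an inhibitor of Wnt signalling, had 50.1, 93.3 and 149 TPM against 9.15, 20.2 and 36.7, with no overlap and a slope of 0.65 (SE 0.061, limma adjusted p = 9.44e-12). Smoc2, a matrix protein, differed by 1.92 and Notum, a secreted enzyme that inactivates Wnt, by 1.52. Lgr5, the receptor that marks cycling stem cells, stood at -0.64 and Ascl2, a stem cell factor, at -0.85, with limma adjusted p of 0.725 and 0.756 for their slopes. Proliferation genes had a median of -0.73, with 2 of 18 lower by over 1 unit, and 4 without vancomycin libraries. Of all genes, 9.18% were lower by over 1 unit with all libraries kept. Mki67, the proliferation antigen, was at -1.09 in the extremes and had a slope of 0.10 (limma adjusted p = 0.604). Notum, Lgr5 and Ascl2 were picked after their values were seen.

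Among genes at or above the median level, the largest positive differences were those of Angptl7, Aldh1a2, Grem1 and Krt17. Angptl7, a secreted angiopoietin-like protein, had a lowest, median and highest TPM of 58.2, 226 and 419.8 in the highest class and of 0.42, 8.45 and 49.1 in the lowest, a 26.7-fold ratio of medians, and a slope of 1.39 (SE 0.24, limma adjusted p = 1.07e-05). Aldh1a2, which makes retinoic acid, had 11.7, 79.9 and 136 against 0.489, 2.31 and 14, with a slight overlap. Krt17, a keratin usually described in stressed epithelium and basal cells, was higher as well, at 40.8, 106 and 188 against 0.884, 6.35 and 21.9 with no overlap, and a slope of 1.38 (SE 0.14, limma adjusted p = 7.22e-11). The other 8 of the 12 were Diras2, Colec10, Bag2, Fxyd6, Kcnd3, Flnc, Kif26a and Frzb, with differences between 3.29 and 3.68. Flnc is a filamin of muscle, Bag2 a cochaperone, Kcnd3 a potassium channel and Frzb a Wnt antagonist. All 12 had a called positive slope.

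The largest negative difference was that of S100g, a calcium-binding protein of calcium absorption, which had 0.0461, 0.55 and 6.09 TPM in the highest class and 2.21, 37.8 and 597 in the lowest. It differed by -4.40 log2 units and its slope was -1.58 (SE 0.43, limma adjusted p = 0.00318). Rnf186, a ubiquitin ligase of colonocytes, had 1.6, 10.8 and 96.1 against 43.1, 152 and 396, and Slc30a10, a manganese exporter, 1.45, 7.33 and 19.7 against 12.2, 148 and 378. Ranges overlapped for all 12 genes with the largest negative differences. Bile acid carriers were among them, with Slc10a2, the uptake carrier, at -3.48 and Slc51a, a subunit of the basolateral exporter, at -3.41, as was the antimicrobial lectin Reg3b at -3.42. Their slopes were not called (limma adjusted p = 0.139, 0.222 and 0.265), nor were those of Osr2, a transcription factor, and Best2, an anion channel of goblet cells (0.122 and 0.118). Car1, Cyp2d26, Zg16 and Gal3st2 completed the 12, with called negative slopes, but with the score alone and no covariates the limma adjusted p was 0.0654 for Car1 and 0.0695 for Cyp2d26.

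Several of these genes were split within the lowest class itself. Slc10a2 reached 100 TPM in 13 of the 24 lowest libraries and in 0 of the 24 highest, and Osr2 reached 10 TPM in 13 and in 1. Hox genes, which mark position along the gut, showed the same unevenness. Hoxd13, a gene of the distal end, was under 1 TPM in 13 of the 24 lowest libraries and in 5 of the highest. The mean log2 level of 7 posterior Hox genes ran from 2.34 to 4.87 in the highest class. In the lowest class 14 libraries lay between 1.44 and 2.52 and the other 10 between 3.90 and 5.71, with none between. The thresholds and this gap were chosen after the values were seen.

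Individual Hox genes differed in how they went with the score. Hoxa11 was higher by 1.42 with a slope of 0.34 (limma adjusted p = 0.0155), the 1 called slope of the 7 posterior genes, which 4 alternatives lost, and Hoxb13, another distal gene, differed by 0.09 and had a slope of 0.07 (limma adjusted p = 0.944). Of 12 anterior Hox genes, 4 were higher, against 16.7% of all genes. A called positive slope was found in 6 of the 12 (50%, against 29.0% of all genes). Hoxa5 had 46.1, 88.1 and 114 TPM against 3.76, 34.7 and 95.4 and a slope of 0.56 (SE 0.10, limma adjusted p = 1.46e-05). The part of colon position in the differences between the classes was not tested.

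Genes of the type I interferon response were lower in the highest class in 15 of 20 cases, with a median of -1.53. Irf7, the transcription factor that amplifies the response, had 17.4, 86.9 and 331 TPM against 75.5, 410.2 and 1202. In the middle libraries 3 slopes (15%) were called negative, against 10.9% of all genes, and 1 positive, and that of Irf7 was not called (-0.58, SE 0.27, limma adjusted p = 0.0815). Libraries of injected neomycin moved with this list. The 4 of them in the lowest class had a list mean of 6.98 ± 0.35 (SD) and the other 20 had 4.86 ± 0.95, while in the middle class 7 had 6.55 ± 0.41 and the other 42 had 4.204 ± 0.69. Leaving injected neomycin out gave a median of -1.12 with 12 of 20 lower. The 7 mix libraries of the lowest class had list means of 4.90 to 6.09. The 2 mix libraries of the highest class had 5.68 and 5.09, above all others of that class. The part of treatment in the remaining difference was not tested.

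**Figure D5:**
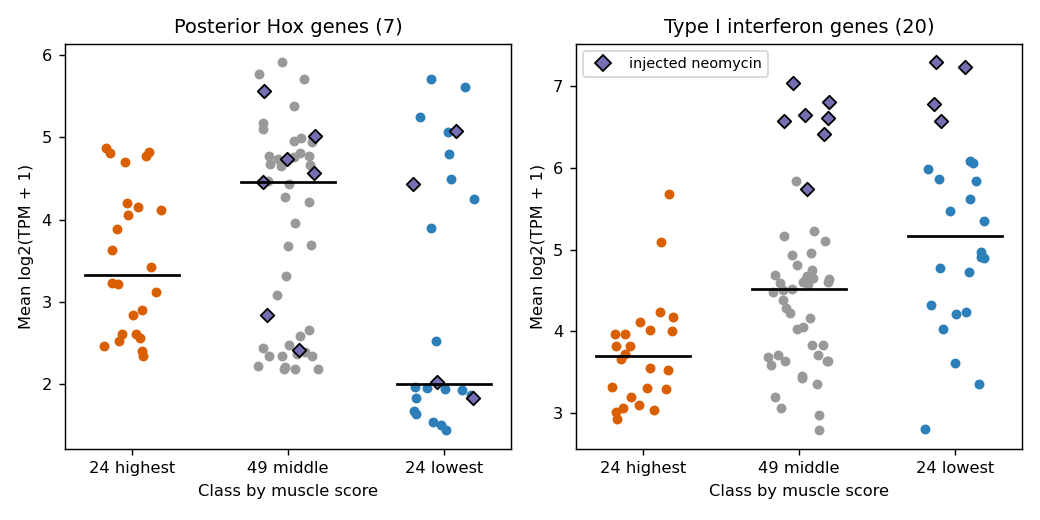
Mean log2(TPM + 1) of 7 posterior Hox genes (left) and of 20 type I interferon genes (right) in each library by class, with a black line at the class median and diamonds for injected neomycin. On the left the 24 lowest libraries form an upper and a lower set, and on the right the 4 injected neomycin libraries of the lowest class have a mean of 6.98.

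B cell genes had a median difference of -0.05 with 0 of 14 past 1 log2 unit and 0 called slopes, and the list mean ran from 0.533 to 5.0027 in the highest class and from 0.490 to 5.39 in the lowest. Cd79a, part of the B cell receptor, had 0.359, 4.55 and 113 TPM against 0.447, 6.06 and 122. T cell genes had a median of -0.86, with 5 of 14 lower, against 9.18% of all genes. Their 3 called negative slopes (21.4%, against 10.9% of all genes) were those of Gzma, Gzmb and Ccl5, which are genes of cytotoxic cells. Plasma cell genes had a median of -0.63, with 3 of 9 lower and 1 called negative slope (11.1%, near the 10.9% of all genes). Igha, the heavy chain of IgA, picked after its values were seen, differed by -2.33 and Jchain, which joins the units of IgA, by -2.18, with slopes that were not called (limma adjusted p = 0.179 and 0.254). Sdc1, on plasma cells and also on epithelium, differed by -1.88 with a called slope of -0.57 (limma adjusted p = 0.00252). Macrophage genes had a median of 0.51 and genes of MHC class II presentation one of -0.04, with 1 and 0 called slopes. The B cell and class II medians were above 0 after the rescaling. The 2 mast cell genes tested stayed under 2 TPM in both classes.

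Nuclear genes of energy metabolism were lower in the highest class. Of 21 entries for nuclear genes of oxidative phosphorylation, among them 2 for Atp5o, 7 were lower by over 1 unit, the median was -0.87 and 18 had a called negative slope. Cox4i1, a subunit of cytochrome c oxidase, had 379, 558 and 1000.5 TPM against 821, 1386 and 1759.8, with a slope of -0.30 (SE 0.093, limma adjusted p = 0.00912). The 13 genes of the mitochondrial genome had a median of 0.46 and 0 called slopes, and mt-Co1, another subunit of that enzyme, differed by 0.35 (limma adjusted p of its slope = 0.431). Ribosomal protein genes had a median of -0.68 with 0 of 20 past 1 unit and 1 called slope, and without vancomycin libraries 5 of 20 were lower by over 1 unit. The mitochondrial median was then 0.73. The directions of these 3 medians were the same after quantile normalization and after the rescaling.

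Clock and immediate early genes had small median differences. The 18 clock genes had a median of 0.15, and Dbp, a clock output factor, had 17.9, 70.8 and 342 TPM against 10.5, 148 and 253 with a slope of 0.09 (limma adjusted p = 0.62). Hlf, a related factor, was higher by 2.47 with a called slope (limma adjusted p = 0.0337). Of 17 immediate early genes, with a median of 0.22, 5 (29.4%) had a called positive and 2 (11.8%) a called negative slope, near the 29.0% and 10.9% of all genes. Ccn1, a matrix protein induced by Srf, was higher by 2.32 and Nr4a1, a nuclear receptor, by 1.83, while Junb, a subunit of the AP-1 factor, was lower, at -1.50. Hlf, Ccn1 and Nr4a1 were named after their values were seen. Red cell genes had a median of 0.06, which was below 0 after quantile normalization.

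Over all 97 libraries the score went with more of the variation between libraries than the groups did. The median gene had 19.7% of its variance, adjusted for the terms used, with the score and 8.28% with the 18 groups, and the share for the score was larger in 12450 of 17077 genes (72.9%). The score held over 50% of the variance in 3717 genes and the groups in 63. These shares are descriptions, since the score was read from the same libraries.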

How the data were processed

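RNA from flash-frozen whole colon (1000 ng, poly(A)-selected) was sequenced as single-end reads of 75 cycles on a NextSeq 550, per the labels' protocols. Per the submitters' processing notes, Trim Galore 0.6.2, cutadapt 3.5, Salmon (version not given) and GRCm39 were used. The authors deposited TPM per gene. Whether counting used strand is not given in the sources used here.

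Values were used as log2(TPM + 1), so differences understate changes of low genes. Genes with TPM of at least 1 in at least 4 libraries were kept (17083 of 20457, or 17077 without the score genes). Slopes were fitted with limma 3.58.1 (trend, robust) in R 4.3.3, with treatment and route as covariates. Balance was tested with 100000 permutations, and scores against PBS with exact permutation tests, using Python 3.11.15 and scipy 1.17.1. The slope and difference steps were tested on simulated data. Same-numbered replicates were not treated as pairs. No 2 libraries were duplicates (largest correlation of log2 values 0.9888).

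Members, the 35 lists and the tests were chosen with earlier results of these data known. Genes were named from the 12 largest differences in each direction among genes at or above the median level, leaving out predicted, unnamed and antigen receptor genes and pseudogenes, and the 4 most abundant members of each list. Other genes were chosen after their values were seen, as stated beside them or, for P2rx1, Ddc, Gzma, Gzmb and Ccl5, here. Vcl and Myl9 were named for the CArG match in their windows, with their values already seen. Alternatives covered the pseudocount, filter, scaling, score genes, class size, covariates, appended columns, array weights, replicate block, PBS libraries alone and each replicate left out. Settings without vancomycin and without injected neomycin were chosen after seeing the data.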

Additional observations from a re-analysis of the deposited data

Results flagged for a closer look

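Within the 18 groups, the muscle score of 2 libraries stood far from the others of their group. Neomycin-IP replicate 5 was high, at 12.551, against a group median of 10.41. Vancomycin-IV replicate 1 was low, at 9.9153, against a group median of 12.72. Chance flags about 1 in 20 groups in this way.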

How the results depend on the processing

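With a pseudocount of 10, genes past 1 log2 unit in the extremes numbered 1302 higher and 909 lower. When PBS libraries above and below their own median score were compared, they numbered 798 and 331, and Gpm6a (-0.019) and Upk3b (-0.40), of the mesothelial list, changed sign. The cause was not tested. Quantile normalization gave 3458 negative slopes in the middle libraries. Without vancomycin libraries, permutation p was 0.385 for class by treatment, 0.219 for score by treatment and 0.140 for score by group. By permutation, score by group had p = 0.0543 with the score from 12 other smooth muscle genes, and score by route had p = 0.0460 without the appended libraries. The other settings kept the direction and side of the threshold of the balance tests and gene counts, and no slope of a named gene changed sign. Of the alternative slopes of named genes, 1675 stayed on their side of the threshold, 46 gained the call and 28 lost it, among them Hoxa11 (limma adjusted p 0.0513 to 0.0918 in 4 settings), Cyp2d26 (0.0695 and 0.0891), Car1 (0.0654) and Slc30a10 (0.0851). Of list medians, 28 alternative values moved beyond the spread and 217 did not. Most of those that moved came from PBS libraries alone, where 17 list medians moved and 18 did not. In that setting the differences of 86 named genes also moved beyond the spread, 2 changed sign and 73 did neither.

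Leaving out single replicates kept the number of antibiotics that differed from PBS at 0, and the difference in score changed sign for 6 of them. The ranges were -0.16 to 0.61 for Ampicillin-IV, -0.41 to 0.49 for Metronidazole-IV, -0.056 to 0.49 for Metronidazole-PO, -0.37 to 0.31 for Mix-PO, -0.22 to 0.32 for Neomycin-IP and -0.36 to 0.35 for Neomycin-PO. Same-numbered samples did not deviate together (median correlation -0.05 over 74 pairs, 30 of them over 0.1). With a replicate block, the slopes called were 5879 positive and 2065 negative, and the score difference was -0.33 for Neomycin-IP and -0.14 for Metronidazole-IV, both of the opposite sign. TPM values give no depth, so the precision of low genes is unknown.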
